A study of Mus musculus with 39 samples.

Results

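The 6 genes described here encode water channel, potassium channel and anchoring proteins of the astrocyte endfoot, the process with which an astrocyte wraps a blood vessel: Aqp4, Kcnj10, Kcnj16, Dag1, Mlc1 and Hepacam. They were chosen by name, through the Ensembl identifier of each symbol in GENCODE M21, and not by a rule on their values. Earlier results of these data were known when the 6 genes and the marker lists were chosen. All 6 were present among the 55401 genes of the deposited tables. RNA came from male mice in a study of chronic social defeat stress, a protocol in which a mouse is repeatedly attacked by an aggressor and is afterwards called susceptible or resilient from how it approaches other mice. The study's title is about CREB, a cAMP-responsive transcription factor, in astrocytes of the nucleus accumbens (NAc), a reward region. Astrocytes were captured from fresh tissue punches with magnetic beads against ACSA-2, an antigen carried by the sodium pump subunit that Atp1b2 encodes. The 39 libraries came from 8 NAc susceptible, 7 NAc resilient, 7 NAc control, 6 PFC susceptible, 5 PFC resilient and 6 PFC control samples. PFC is read here as prefrontal cortex, which the labels do not spell out, and the protocol text names NAc tissue for every library, including the 17 labelled PFC. Each library carries its own mouse number. For 16 of the 17 PFC libraries, all with odd numbers, the next number is a NAc library of the same condition. Whether such pairs came from the same mouse is not stated. The labels used here give no strain, age, genotype or further treatment for any group, and p-values below measure the spread between libraries as labelled.

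Endfeet take up the potassium that active neurons release and carry water between brain tissue and the perivascular space. Aqp4 encodes aquaporin 4, the main water channel of brain astrocytes, and Kcnj10 encodes Kir4.1, the inwardly rectifying potassium channel that sets their resting potential. Kcnj16 encodes Kir5.1, a subunit that assembles with Kir4.1 and is not known to form a functional channel at the surface alone. Dag1 encodes dystroglycan, which ties laminin of the vascular basal lamina to the dystrophin complex, to which aquaporin 4 is anchored. Mlc1 encodes a membrane protein of astrocyte junctions around vessels, and Hepacam encodes GlialCAM, the adhesion protein that brings MLC1 to those junctions. Loss of either of the last pair in humans causes a leukodystrophy with cysts and swollen white matter.

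The promoters of Mlc1, Hepacam and Kcnj10 are shown as examples, and those of Dag1 and Kcnj16 are not printed. All 6 genes varied together across libraries, while Mlc1 differed by region once levels were set against astrocyte markers. The sequences are those of RefSeq for GRCm38.p6, from 250 bases before to 50 bases after the RefSeq start, and capitals mark TTGGC, the core of the site of nuclear factor I, or its reverse complement GCCAA.
Mlc1, chr15:88978504-88978803, minus strand: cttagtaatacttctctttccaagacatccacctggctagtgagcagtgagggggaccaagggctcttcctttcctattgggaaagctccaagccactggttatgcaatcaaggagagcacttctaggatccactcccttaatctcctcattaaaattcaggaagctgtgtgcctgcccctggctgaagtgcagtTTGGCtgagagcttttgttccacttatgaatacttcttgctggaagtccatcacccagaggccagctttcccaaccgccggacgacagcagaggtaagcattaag
Hepacam, chr9:37367356-37367655, plus strand: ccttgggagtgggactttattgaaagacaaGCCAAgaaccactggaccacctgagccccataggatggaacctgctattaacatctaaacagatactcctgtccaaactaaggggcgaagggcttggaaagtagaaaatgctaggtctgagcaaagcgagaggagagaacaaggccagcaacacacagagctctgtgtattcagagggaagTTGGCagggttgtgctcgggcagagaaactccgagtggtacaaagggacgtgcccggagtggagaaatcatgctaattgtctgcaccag
Kcnj10, chr1:172340960-172341259, plus strand: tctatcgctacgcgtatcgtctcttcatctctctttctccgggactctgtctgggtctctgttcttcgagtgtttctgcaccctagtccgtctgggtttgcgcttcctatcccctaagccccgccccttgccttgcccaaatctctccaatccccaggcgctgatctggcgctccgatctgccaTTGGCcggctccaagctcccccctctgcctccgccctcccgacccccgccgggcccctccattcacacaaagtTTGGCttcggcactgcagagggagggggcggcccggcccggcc
The motif TTGGC, searched on both strands, was present once in the Mlc1 promoter and at 2 places in those of Hepacam and Kcnj10, and 46.7% of 32851 mouse promoters of this length held it. The CREB core site TGACG, present in 20.8% of promoters, had no match in these 3 windows. Promoter entries were found for 5 of the 6 genes. The windows of Mlc1 and Hepacam lie wholly inside the gene spans used for counting, since RefSeq places their starts further in, whereas the Kcnj10 window ends 50 bases inside its span.

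In the mm10 assembly Aqp4 (ENSMUSG00000024411) spans chr18:15389496-15410982 on the minus strand, Kcnj10 (ENSMUSG00000044708) chr1:172341210-172374085 on the plus strand and Kcnj16 (ENSMUSG00000051497) chr11:110968033-111027968 on the plus strand. Dag1 (ENSMUSG00000039952) spans chr9:108204634-108263958 on the minus strand, Mlc1 (ENSMUSG00000035805) chr15:88955884-88979007 on the minus strand and Hepacam (ENSMUSG00000046240) chr9:37367351-37386575 on the plus strand. The counts cover the whole gene span, introns and UTRs included. Aqp4 overlaps the gene AC133525.2, which held 7953 counts over all libraries against 47696 for Aqp4, and without a stated strand setting reads of the overlap cannot be assigned to 1 of them.

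The libraries held 941450 to 37339379 counts, with a median of 11264270. Background cover was gauged from 1481 olfactory, vomeronasal and trace amine receptor genes, which brain cells are not known to transcribe at a high level; their FPKM (fragments per kilobase, scaled to library size) is given as a percent of the 0.764 FPKM that reads spread evenly over all gene spans would give. It averaged 56.0 ± 7.9% in NAc susceptible (SD, n = 8), 64.5 ± 10.5% in NAc resilient (n = 7), 53.1 ± 9.2% in NAc control (n = 7), 46.7 ± 18.1% in PFC susceptible (n = 6), 47.3 ± 23.8% in PFC resilient (n = 5) and 50.4 ± 17.8% in PFC control libraries (n = 6). The 19 astrocyte markers summed to between 1840 and 18300 CPM (counts scaled to the library total) in single libraries. The 12 oligodendrocyte markers summed to 540 to 4640 CPM and the 10 neuron markers to 661 to 3100 CPM. These sums include background cover, and in the median library single neuron markers stood at only 0.853 to 3.01 times background and 11 of 12 oligodendrocyte markers at 3.27 to 68.3 times. None of the markers of these 3 cell types was at 0 in all libraries of a group. Vascular markers were present too. In the median library the 10 endothelial markers stood at 1.21 to 5.19 times background. The 8 pericyte and smooth muscle markers stood at 1.64 to 49.4 times, with Vtn the highest and Pdgfrb next at 6.05 times.

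Hepacam was the highest of the 6 genes per length, with a mean of 7.32 FPKM over the 39 libraries, and Aqp4 followed with 5.47 FPKM. Mlc1 averaged 4.03 FPKM, Kcnj10 2.93 FPKM, Dag1 1.83 FPKM and Kcnj16 0.832 FPKM. Set against the background cover of the same library, the median library held Hepacam at 15.1 times, Aqp4 at 11.3 times, Mlc1 at 8.64 times, Kcnj10 at 6.61 times and Dag1 at 4.09 times background. These 5 genes stood at 2 or more times background in all 39 libraries. Kcnj16 stood at a median of 1.91 times background and passed 2 times background in 15 libraries, so its level was close to that of the background cover itself.

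The water channel gene Aqp4 had a lowest, median and highest level of 2.79, 4.79 and 7.11 FPKM in NAc susceptible libraries, 1.93, 2.7 and 5.71 FPKM in NAc resilient libraries and 2.94, 5.03 and 9.59 FPKM in NAc control libraries. In PFC they were 1.45, 7.67 and 15.5 FPKM in susceptible libraries and 1.91, 4.82 and 9.32 FPKM in control libraries, while the 5 PFC resilient libraries had 5.62, 20.0, 5.89, 1.91 and 3.81 FPKM. All 6 ranges overlapped. The highest value, 20.0 FPKM, came from PFC resilient replicate 2, and the next, 15.5 FPKM, from PFC susceptible replicate 1; these libraries had background covers of 19% and 13.4%, the lowest of the 39.

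The Kir4.1 gene Kcnj10 averaged 2.84 ± 0.81 FPKM in NAc susceptible (SD, n = 8), 2.4 ± 1.02 in NAc resilient (n = 7) and 3.25 ± 0.893 in NAc control libraries (n = 7). In PFC it averaged 3.5 ± 1.43 FPKM in susceptible (n = 6), 3.21 ± 1.54 in resilient (n = 5) and 2.52 ± 0.603 in control libraries (n = 6). Its partner Kcnj16 was nearly flat, with group means between 0.796 FPKM in NAc control and 0.91 FPKM in PFC resilient libraries, and its single libraries ran from 0.606 to 1.4 FPKM. Dag1 had group means between 1.63 FPKM in NAc resilient and 2.05 FPKM in PFC susceptible libraries, and ran from 1.28 to 3.35 FPKM in single libraries.

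Mlc1 had a lowest, median and highest level of 3.09, 3.65 and 7.76 FPKM in NAc susceptible, 1.79, 2.95 and 8.97 FPKM in NAc resilient and 3.21, 4.37 and 6.21 FPKM in NAc control libraries. The values were 1.48, 4.88 and 6.06 FPKM in PFC susceptible and 1.72, 2.87 and 3.61 FPKM in PFC control libraries, and 3.15, 8.8, 2.24, 1.69 and 3.33 FPKM in the 5 PFC resilient libraries. The ranges overlapped between all groups, although 6 of 6 PFC control libraries lay below the median of NAc control libraries. Its partner Hepacam averaged 7.08 ± 2.45 FPKM in NAc susceptible (SD, n = 8), 5.82 ± 3.53 in NAc resilient (n = 7) and 7.98 ± 2.56 in NAc control libraries (n = 7). In PFC it averaged 8.81 ± 4.13 FPKM in susceptible (n = 6), 8.94 ± 6.21 in resilient (n = 5) and 5.78 ± 1.8 in control libraries (n = 6). When the 6 groups were ordered by mean FPKM, no pair of neighbours in the order differed by more than the larger of their SDs, for any of the 6 genes.

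**Figure D1:**
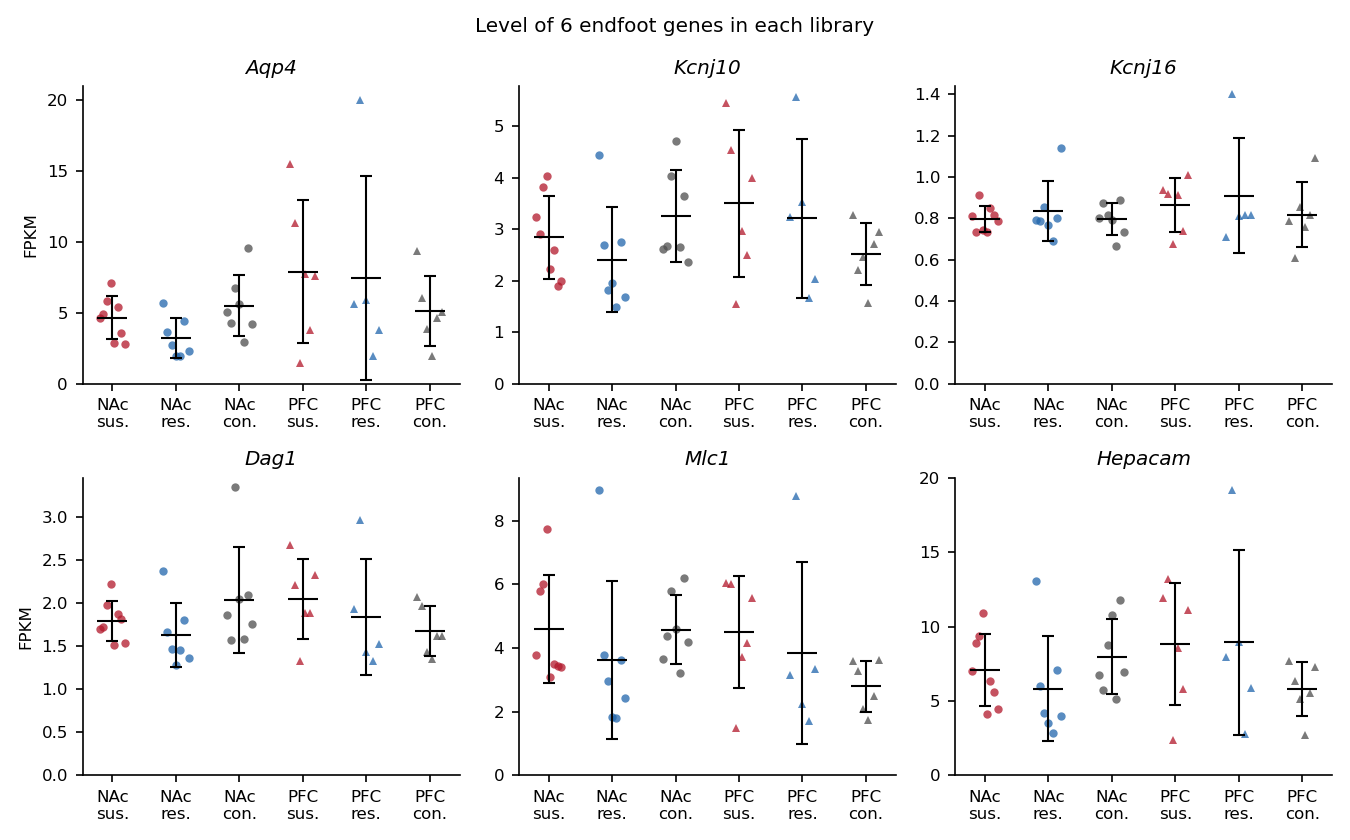
Level of each of the 6 endfoot genes (FPKM, linear axes from 0) in each of the 39 libraries, by group; sus., res. and con. are susceptible, resilient and control, bars are the mean and whiskers the SD. For each gene the ranges of the 6 groups overlap, and PFC resilient replicate 2 is the highest library for Aqp4 (20.0 FPKM) and Hepacam (19.2 FPKM).

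In NAc, all 6 genes had lower fitted levels in susceptible than in control mice, and none passed the test. Here and below, fold changes are log2 values with their standard error from edgeR's quasi-likelihood test, and a gene is called at a Benjamini-Hochberg adjusted p under 0.05 over all genes tested. Aqp4 differed by -0.33 ± 0.33, Kcnj10 by -0.26 ± 0.28, Kcnj16 by -0.07 ± 0.12, Dag1 by -0.25 ± 0.18, Mlc1 by -0.05 ± 0.36 and Hepacam by -0.25 ± 0.35, each with an adjusted p of 1. The share of genes called was 0% of 35943, by edgeR, DESeq2 and limma alike, and 1086 genes had an unadjusted p under 0.05. Of all genes tested, 50.3% were lower in susceptible mice. The 6 genes had a median of -0.25, against -0.001 over all genes, and the 19 astrocyte markers, of which 17 were lower, had a median of -0.16. Oligodendrocyte markers were lower for 12 of 12, with a median of -0.8, 7 at an unadjusted p under 0.05 and 0 called. Their sums ran from 741 to 3000 CPM in NAc susceptible and from 839 to 4640 CPM in NAc control libraries, and their part in the differences of the 6 genes was not tested.

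The largest difference from control in NAc was that of Aqp4 in resilient mice, and it too missed the threshold. Aqp4 averaged 3.23 ± 1.42 FPKM in NAc resilient libraries (SD, n = 7) and 5.49 ± 2.17 FPKM in NAc control libraries (SD, n = 7), and the ranges overlapped. The fitted difference was -0.85 ± 0.34, with an unadjusted p of 0.0218 and an adjusted p of 0.756 in edgeR's test. The other differences from control were -0.49 ± 0.29 for Kcnj10, -0.03 ± 0.13 for Kcnj16, -0.39 ± 0.19 for Dag1, -0.37 ± 0.37 for Mlc1 and -0.52 ± 0.37 for Hepacam, with adjusted p-values of 0.756 or more. The share called was 0% by edgeR, DESeq2 and limma, with 2206 of 35943 genes at an unadjusted p under 0.05 and 47.9% of all genes lower in resilient mice. The astrocyte markers were lower for 18 of 19, with a median of -0.58 beside -0.44 for the 6 genes, and the NAc resilient libraries also had the highest mean background cover of the 6 groups. The oligodendrocyte markers were lower for 12 of 12, with a larger median difference of -1.14, and 11 of them had an unadjusted p under 0.05, against 1 of the 19 astrocyte markers; 0 of either list were called. Summed oligodendrocyte markers ran from 675 to 2080 CPM in NAc resilient and from 839 to 4640 CPM in NAc control libraries, and their part in the Aqp4 difference was not tested. With the mean level of the astrocyte markers as a covariate, a fit added after the data were seen, the Aqp4 difference was -0.26. In bulk RNA, fewer astrocytes in a library and less RNA per astrocyte cannot be told apart.

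Between susceptible and resilient NAc mice, none of the 6 genes passed the test. The Aqp4 range was 2.79 to 7.11 FPKM in susceptible and 1.93 to 5.71 FPKM in resilient libraries, and the difference was 0.52 ± 0.33 with an adjusted p of 0.998 in edgeR's test. Of the 6 genes, 5 were higher in susceptible mice, as were 53.5% of all genes and 19 of 19 astrocyte markers. The share of genes called was again 0% of 35943, with 1042 at an unadjusted p under 0.05 and 0 called by DESeq2 or limma.

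In PFC the 6 genes had the opposite sign, higher in both groups of defeated mice than in control mice, and again none passed the test. In susceptible mice the differences were 0.73 ± 0.62 for Aqp4, 0.58 ± 0.39 for Kcnj10, 0.16 ± 0.24 for Kcnj16, 0.34 ± 0.31 for Dag1, 0.75 ± 0.46 for Mlc1 and 0.68 ± 0.49 for Hepacam. In resilient mice they were 0.72 ± 0.65, 0.51 ± 0.41, 0.31 ± 0.25, 0.26 ± 0.33, 0.63 ± 0.47 and 0.8 ± 0.51 for the genes in the same order. All adjusted p-values were 1 in edgeR's test. The share of genes called was 0% of 32167 in both comparisons by edgeR, DESeq2 and limma, with 155 genes in susceptible and 192 genes in resilient mice at an unadjusted p under 0.05. Of all genes, 47.5% were higher in susceptible and 47.4% in resilient mice. The same control libraries stand in both comparisons.

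The PFC differences moved with the astrocyte markers and rested in part on single libraries. The markers were higher for 19 of 19 in both comparisons, with medians of 0.72 in susceptible and 0.72 in resilient mice, beside medians of 0.63 and 0.57 for the 6 genes. Pericyte and smooth muscle markers were higher for 8 of 8 in susceptible mice, with a median of 0.49 and 3 at an unadjusted p under 0.05, and oligodendrocyte markers for 12 of 12 in resilient mice, with a median of 0.22 and 0 at an unadjusted p under 0.05. The part of these cells in the differences was not tested. With the marker level as a covariate the Aqp4 difference was -0.15 in susceptible and -0.21 in resilient mice. Without PFC resilient replicate 2, the resilient difference of Aqp4 was -0.24, that of Kcnj16 -0.02, that of Dag1 -0.09 and that of Mlc1 -0.08. Between susceptible and resilient PFC mice Aqp4 differed by 0.01 ± 0.65 (adjusted p = 1 in edgeR's test, 0% of 32167 genes called, 184 at an unadjusted p under 0.05, 0 called by DESeq2 or limma), and 4 of the 6 genes were higher in susceptible mice, as were 50.1% of all genes.

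**Figure D2:**
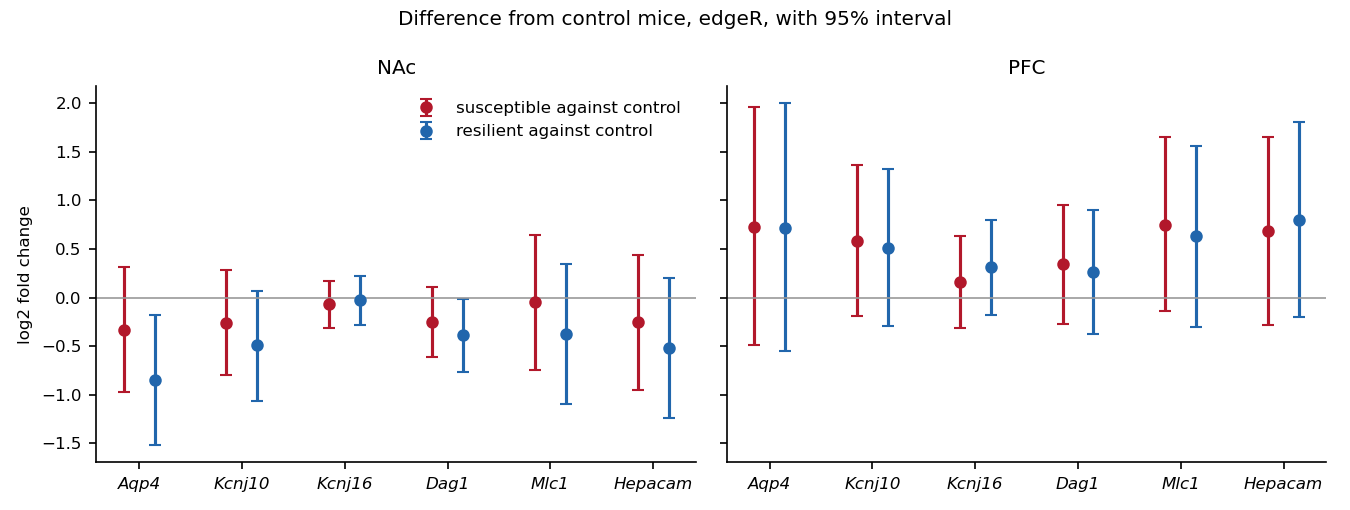
Fitted log2 fold change of the 6 endfoot genes in susceptible and in resilient mice, each against control mice, in NAc (left) and PFC (right), with 95% intervals from edgeR. All NAc values lie below 0 and all PFC values above it; no gene was called in either region.

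Whether the defeat differences themselves differed between regions was tested as an interaction. For Aqp4 the resilient effect was -1.56 ± 0.74 in NAc minus PFC, with an unadjusted p of 0.0437 and an adjusted p of 0.849 in edgeR's test, and the susceptible effect was -1.04 ± 0.71 with an adjusted p of 1. For Mlc1 the values were -1.0 ± 0.61 for resilient and -0.78 ± 0.59 for susceptible mice. All 6 genes had negative values in both, as had 19 of 19 astrocyte markers and 44% of all genes for the resilient and 44.3% for the susceptible effect. Oligodendrocyte markers were negative for 12 of 12 in both, with medians of -1.41 for the resilient effect (10 at an unadjusted p under 0.05) and -0.81 for the susceptible effect, and pericyte and smooth muscle markers were negative for 8 of 8 in the susceptible effect, with a median of -0.61. Their part in the values of the 6 genes was not tested. No gene was called (0% of 38171 in either, by edgeR, DESeq2 and limma), with 1318 genes for the resilient and 528 for the susceptible effect at an unadjusted p under 0.05. Without PFC resilient replicate 2 the Aqp4 value for resilient mice was -0.62, and with the marker covariate it was 0.08.

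Libraries of 1 group differed in the log2 CPM of the 6 genes, and the genes varied together. Log2 CPM is scaled here with edgeR's TMM factor, 1 value per library that all genes share. The factor ran from 0.673 to 1.143 over the 39 libraries. It therefore enters each r below, those of Kcnj16 with its small SD included, and its part was not tested. After the group mean was removed from each log2 CPM value, the SD over the 39 libraries was 0.9 for Aqp4, 0.79 for Hepacam, 0.72 for Mlc1, 0.6 for Kcnj10, 0.44 for Dag1 and 0.3 for Kcnj16. The 15 pairs had Pearson's r between 0.73 and 0.96 and Spearman's rho between 0.71 and 0.96. Hepacam and Aqp4 were the closest pair by both (r = 0.96, rho = 0.96, permutation p = 1e-05 for each, the smallest that 100000 permutations can give; r = 0.95 without the 2 most extreme libraries). Dag1 and Kcnj16 had the lowest r (r = 0.73, permutation p = 7e-05; rho = 0.75, permutation p = 1e-05; r = 0.6 without 2 libraries). Over the 21 relations computed, these 15 and 6 with background cover, the largest adjusted permutation p of r was 0.0036, and that of rho 0.0041. Each gene's r with the mean of the other members ran from 0.79 for Kcnj16 to 0.97 for Aqp4 and Hepacam. Values as high were found in other genes. Among 13146 of them, Sox9 ranked 37th with r = 0.973 to the mean of the 6, and Gfap 2592nd with 0.791.

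Each of the 6 genes tended to have a lower log2 CPM, against its group mean, where background cover was higher. Both values are scaled to the same library, background cover by its total count and log2 CPM by that total times the TMM factor. The factor was 0.673 in the library with the lowest cover, 13.4%, and 1.03 in that with the highest, 81.1%. A negative sign is therefore in part built in, and not only for genes far above background. The share of all genes with a negative value was not computed, so the p-values below show no link particular to these genes. Pearson's r with background cover was -0.92 for Dag1, -0.8 for Aqp4, -0.8 for Kcnj10, -0.79 for Mlc1, -0.76 for Hepacam and -0.55 for Kcnj16, and rho ran from -0.88 to -0.51. The permutation p was 1e-05 for both measures in 5 genes and 0.004 for both in Kcnj16. Without the 2 libraries farthest from the median cover, r was -0.9 for Dag1, -0.77 for Aqp4 and -0.51 for Kcnj16. Of 13146 other genes, those whose deviations were most like the mean deviation of the 6 were Acsl6 (r = 0.987 over 39 libraries), which encodes an acyl-CoA synthetase, Scg3 (r = 0.987), which encodes a secretogranin, Glul (r = 0.987), which encodes glutamine synthetase, Atp1b2 (r = 0.984), which encodes the carrier of the antigen used for capture, and Mfge8 (r = 0.984), a secreted opsonin gene of astrocytes. The last 3 are among the 19 astrocyte markers.

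**Figure D3:**
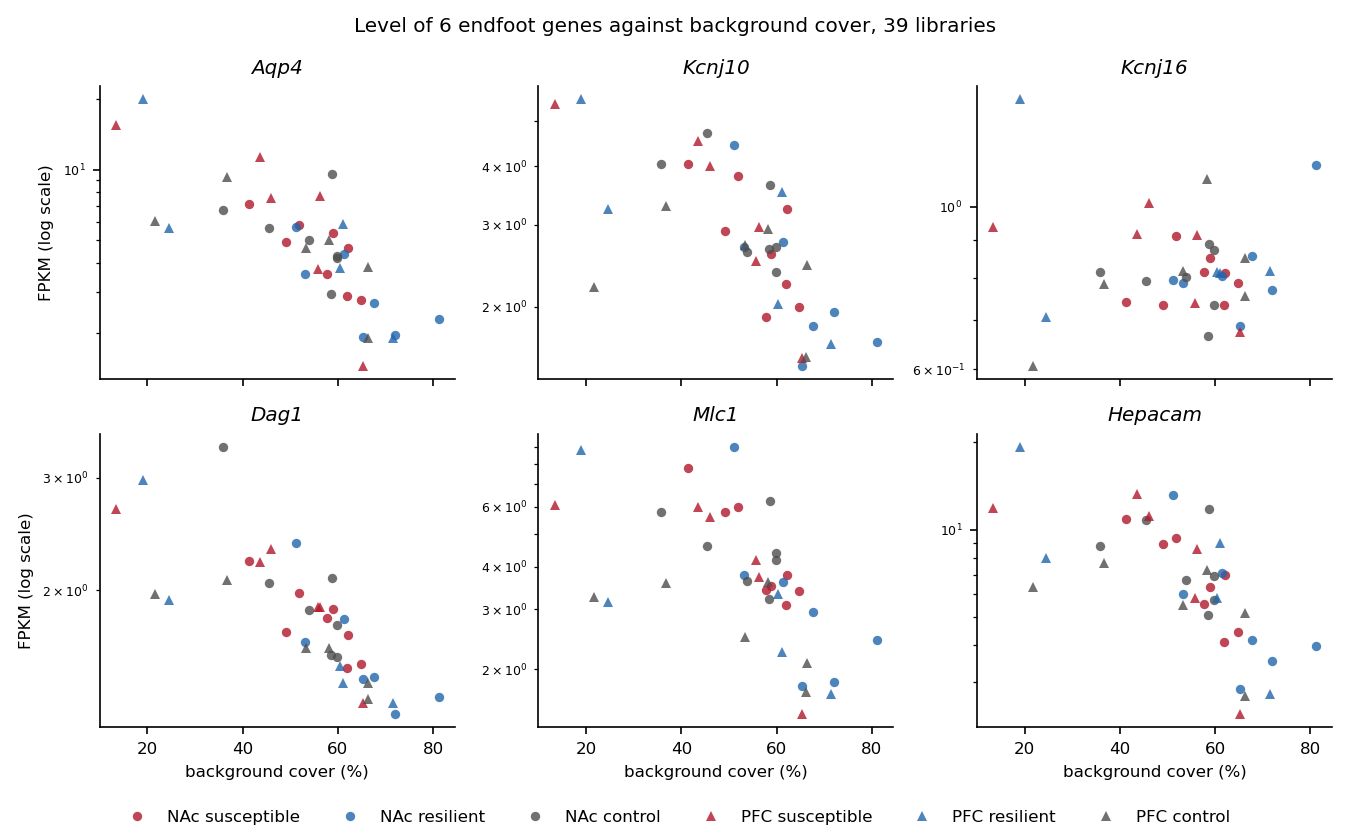
FPKM of each endfoot gene (log axis) against the background cover of the same library (percent of an even cover), with 39 points coloured by condition and shaped by region. Pearson's r with background cover was taken on TMM-scaled log2 CPM deviations from the group mean, not on the plotted FPKM. It ran from -0.92 for Dag1 to -0.76 for Hepacam, and was -0.55 for Kcnj16. In plotted FPKM the highest NAc library of Kcnj16, NAc resilient replicate 7 (1.14 FPKM), had the highest cover, 81.1%.

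Between regions, no endfoot gene passed the test on its plain level. Aqp4 in NAc minus PFC was -1.06 ± 0.49 in susceptible (unadjusted p = 0.0393, adjusted p = 0.718), -1.58 ± 0.54 in resilient (unadjusted p = 0.00569, adjusted p = 0.305) and -0.02 ± 0.51 in control mice (adjusted p = 1) by edgeR's test. For Mlc1 the values were -0.18 ± 0.41 in susceptible, -0.4 ± 0.44 in resilient and 0.6 ± 0.43 in control mice. The share of genes called was 0.00262% of 38171 in susceptible, 0% in resilient and 0.00262% in control mice; in resilient mice 5564 genes had an unadjusted p under 0.05, DESeq2 called 55 genes and limma 0. Astrocyte markers were lower in NAc for 18 of 19 in susceptible and 19 of 19 in resilient mice, and higher for 14 of 19 in control mice.

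Averaged over the 3 conditions, a comparison added after the data were seen, Aqp4 was -0.88 ± 0.3 in NAc minus PFC (adjusted p = 0.0864) and Mlc1 0.01 ± 0.25 (adjusted p = 0.99), beside 4% of 38171 genes called and a median of -0.5 for the astrocyte markers. The Aqp4 difference ran from -0.97 to -0.56 as each library was left out in turn. It passed without PFC resilient replicate 4 (-0.97, adjusted p = 0.0306) and without PFC susceptible replicate 3 (-0.96, adjusted p = 0.0327). It was -0.09 with the marker covariate. The edgeR fit and its Benjamini-Hochberg adjustment were the same as above.

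Mlc1 was the endfoot gene that differed by region once levels were set against the astrocyte markers. The relative level, log2 CPM of the gene minus the mean log2 CPM of the 19 markers in the same library, had a lowest, median and highest value for Mlc1 of -0.55, -0.18 and -0.13 in NAc susceptible, -0.48, -0.22 and 0.01 in NAc resilient and -0.43, -0.27 and -0.03 in NAc control libraries. In PFC the values were -0.93, -0.65 and -0.31 in susceptible and -0.93, -0.82 and -0.49 in control libraries, and -0.9, -0.71, -1.25, -0.6 and -0.68 in the 5 resilient libraries. Each NAc resilient library lay above each PFC resilient library, and each NAc control library above each PFC control library, whereas the susceptible groups overlapped. The means were -0.25 ± 0.15 and -0.62 ± 0.23 in NAc and PFC susceptible, -0.23 ± 0.17 and -0.83 ± 0.26 in NAc and PFC resilient, and -0.26 ± 0.15 and -0.76 ± 0.17 in NAc and PFC control libraries (SD, n as above).

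**Figure D4:**
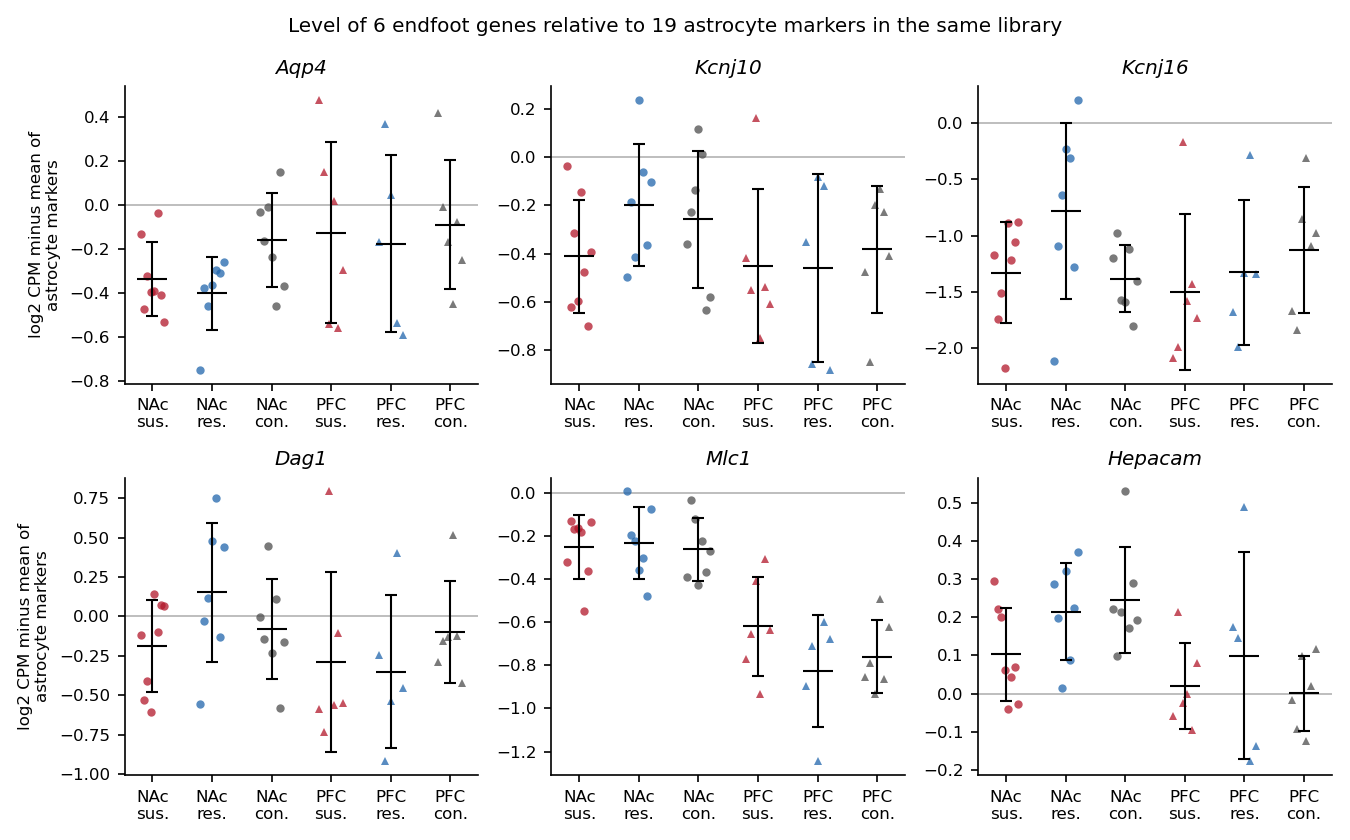
Relative level of the 6 endfoot genes (log2 CPM minus the mean log2 CPM of 19 astrocyte markers in the same library) by group, each point a library, with mean and SD. For Mlc1 the NAc groups have means of -0.25, -0.23 and -0.26 and the PFC groups means of -0.62, -0.83 and -0.76; for the other 5 genes the regions overlap in each condition.

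A fit of all 39 libraries with the marker level as a covariate, chosen after these values were seen, gave Mlc1 a difference of 0.46 ± 0.06 in NAc minus PFC over the 3 conditions, a 1.37-fold higher level (95% interval of the log2 value 0.33 to 0.58). Its adjusted p was 1.42e-05 in edgeR's test, and it ranked 13th of 38171 genes by p. The background was 2.45% of genes called, with 238 higher and 696 lower in NAc, and 1 of the 6 endfoot genes was called. In all alternatives run, each library left out in turn included, Mlc1 stayed called with values of 0.43 to 0.48; the largest adjusted p, 0.0122, came from taking consecutive sample numbers of the 2 regions as pairs. By condition the difference was 0.35 ± 0.1 in susceptible (adjusted p = 0.74, 0.0183% of genes called), 0.53 ± 0.12 in resilient (adjusted p = 0.269, 0.00524%) and 0.5 ± 0.11 in control mice (adjusted p = 0.0381, 0.139%). The susceptible effect differed between regions by -0.15 ± 0.15 and the resilient effect by 0.03 ± 0.16, with adjusted p-values of 1.

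Hepacam, which encodes the partner of MLC1, was 0.17 ± 0.05 in NAc minus PFC in the same edgeR fit and missed the threshold (adjusted p = 0.0891). The Hepacam value ran from 0.15 to 0.21 as each library was left out in turn. It passed without PFC resilient replicate 3 (0.21, adjusted p = 0.0175) and without the 3 shallowest libraries (0.23, adjusted p = 0.0126). The other differences were -0.09 ± 0.08 for Aqp4, 0.06 ± 0.07 for Kcnj10, -0.11 ± 0.07 for Kcnj16 and 0.03 ± 0.07 for Dag1, with adjusted p-values of 0.544 or more. Markers of other cells stood beside these values in the same fit: 5 of 5 ependymal markers were positive with 1 called (Foxj1, 0.99), 12 of 12 oligodendrocyte markers were positive with 1 called (Mobp, 0.71), and 0 of 8 pericyte and smooth muscle markers were positive with 2 called. Of 10 microglia markers 8 were negative and 2 were called, C1qb (-0.68, adjusted p = 0.00491) and C1qa (-0.69, adjusted p = 0.0228). Of the 19 astrocyte markers that make up the covariate, 3 were themselves called, Dio2 (-0.49) and Glul (-0.24) lower and Slc7a10 (0.22) higher in NAc, so the Mlc1 value is set against a mean whose parts moved both ways. Summed ependymal markers ran from 40.9 to 67.3 CPM in NAc susceptible, 41.8 to 55.2 in NAc resilient, 27.3 to 71.6 in NAc control, 15.7 to 49.3 in PFC susceptible, 19.8 to 42.6 in PFC resilient and 24.1 to 47.2 CPM in PFC control libraries. In the median library single ependymal markers stood at 1.29 to 4.02 times background. The part of these cell types in the Mlc1 difference was not tested.

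**Figure D5:**
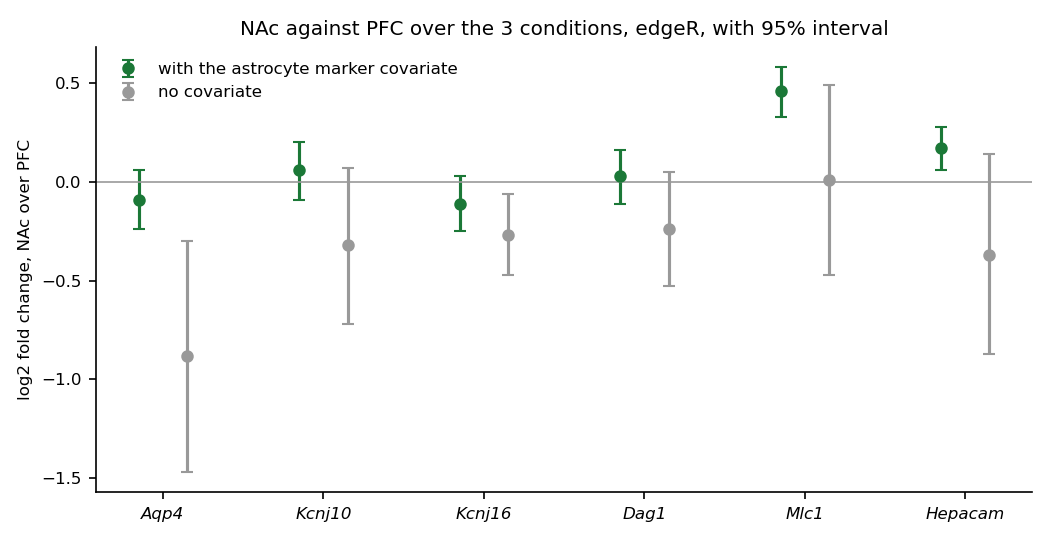
Log2 fold change of the 6 endfoot genes in NAc over PFC across the 3 conditions, with 95% intervals, from edgeR with (green) and without (grey) the astrocyte marker covariate. With the covariate Mlc1 stands at 0.46 and Hepacam at 0.17; Aqp4 stands at -0.09 with and -0.88 without it.

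Genes that work beside the endfoot channels were read in the same covariate fit. Of 14 genes for ion, volume and gap junction transport in astrocytes, 2 were called higher and 2 lower in NAc. Slc4a4, which encodes a sodium bicarbonate cotransporter, was 0.32 ± 0.05 (adjusted p = 0.000105) and Gja1, which encodes connexin 43, 0.27 ± 0.06 (adjusted p = 0.00357). Gjb6, which encodes connexin 30, had the opposite sign, -0.44 ± 0.07 (adjusted p = 0.000148). Of 11 genes of the dystrophin complex that holds dystroglycan, 0 were called higher and 1 lower: Dmd, at -0.3 ± 0.07 (adjusted p = 0.0192), had a mean of 0.326 FPKM and a median of 0.708 times background. None of 13 laminin and basal lamina genes, 13 genes for the glycosylation of dystroglycan or 11 other aquaporin genes was called. The call of Dmd was lost without PFC resilient replicate 1, NAc resilient replicate 1 or PFC susceptible replicate 3, with adjusted p-values of 0.0696, 0.0618 and 0.0836 by edgeR. With consecutive sample numbers of the 2 regions taken as pairs, the calls of Slc4a4 (0.28, adjusted p = 0.265), Gja1 (0.24, adjusted p = 0.47) and Dmd (-0.2, adjusted p = 1) were lost in edgeR's test, while Gjb6 stayed called.

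Of 13 other genes for inward rectifiers, 0 were called higher and 3 lower in NAc in that fit: Kcnj9 at -1.31 ± 0.26 (adjusted p = 0.00291), Kcnj3 at -0.52 ± 0.13 (adjusted p = 0.0159) and Kcnj6 at -0.39 ± 0.11 (adjusted p = 0.0356). These encode subunits of G protein gated channels of neurons. In the median library Kcnj3 stood at 1.13 times background, Kcnj6 at 1.93 times and Kcnj9 at 2.59 times, and they passed 2 times background in 5, 15 and 28 of the 39 libraries. With consecutive sample numbers as pairs all 3 calls were lost, at -0.81 for Kcnj9 (adjusted p = 0.582), -0.29 for Kcnj3 and -0.24 for Kcnj6 (adjusted p = 1 for both) by edgeR. Of the 10 neuron markers 2 were called higher and 4 lower in NAc, among them Slc17a7 (-2.2), the vesicular glutamate transporter of cortical excitatory neurons, Snap25 (-1.49) and Drd1 (0.64; 1.48 times background in the median library), the dopamine receptor of striatal projection neurons. The part of neuronal RNA in the 3 channel genes was not tested. The Kcnj3 call was lost without PFC susceptible replicate 3 (-0.46, adjusted p = 0.102), and the Kcnj6 call was lost, at values of -0.39 to -0.33, without any 1 of NAc susceptible replicates 1, 2, 3 and 4, NAc resilient replicates 1 and 6, NAc control replicate 6, PFC susceptible replicate 3 and PFC resilient replicate 1, by edgeR.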

How the data were processed

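The deposited counts and FPKM of 39 ACSA-2-captured astrocyte libraries, made with a stranded total RNA kit per the labels' protocols, were used. Per the submitters' processing notes, reads were counted with featureCounts against mm10; the aligner, gene annotation and strand counting were not given in the sources used here. FPKM deposited by the authors equal their counts scaled to the library total and to the kilobases of the whole gene span in GENCODE M21, within a relative tolerance of 1e-06 for 54229 of 54229 genes with the same versioned identifier. Of 55401 genes, 55141 matched M21, and 260 have no name there. Library totals ran from 941450 to 37339379 counts, so the shallowest library limits the precision of its values most.

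Counts were fitted with edgeR 4.0.16 (TMM scaling, filterByExpr, robust quasi-likelihood test) in R 4.3.3, per region for defeat comparisons and over all 39 libraries for region comparisons, with Benjamini-Hochberg adjustment over all genes tested. DESeq2 1.42.0 and limma 3.58.1 (log2 of FPKM plus 0.5) were alternatives. Log2 CPM used TMM-scaled library sizes and a pseudocount of 2. The procedure was tested on simulated data. Genes were drawn independently there, without the shared variation between libraries seen here, and the share of changes recovered is not given here. The 6 genes and the lists were chosen with earlier results of these data known. The rule names the 6 genes, at most 3 genes per list and comparison by unadjusted p, and the 5 genes most like the 6 by r of within-group deviations, taken over genes averaging above 3 in log2 CPM. The astrocyte marker covariate and the average over the 3 conditions were chosen after the data were seen.

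Replicate numbers are shared between groups. In PFC every same-numbered pair of libraries deviated together, with correlations of at least 0.149. In NAc 4 of 7, 5 of 7 and 2 of 7 pairs passed 0.1. The main fits did not use these numbers in either region, and a replicate block was run as an alternative only. The p-values printed for PFC therefore do not account for any pairing of its libraries. Of the 16 pairs of an odd PFC sample number and the next NAc number, 9 passed 0.1, with correlations from -0.58 to 0.775. Both libraries of each pair have the same condition, which is why consecutive numbers were tried as pairs, as an alternative only. The p-values of the main region fits therefore do not account for a possible pairing within mice. Expression of features outside the named genes and lists is not analysed here.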

Additional observations from a re-analysis of the deposited data

Results flagged for a closer look

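Within groups of 5 to 8 libraries, 5 of 72 sets of values held 1 library far from the others by Dixon's test, where chance gives about 1 in 20 sets. Kcnj16 in PFC resilient replicate 2 had a log2 CPM of 6.86, with the nearest other library of its group at 5.82. On the level relative to the astrocyte markers, Aqp4 in NAc resilient replicate 1 stood at -0.75 (nearest -0.46). Kcnj10 in PFC susceptible replicate 3 stood at 0.16 (nearest -0.42), and Kcnj16 in the same library at -0.17 (nearest -1.43). Dag1 in PFC control replicate 4 stood at 0.52 (nearest -0.12).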

How the results depend on the processing

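No gene was called by any alternative in the 6 comparisons within a region or in the 2 interactions, and no endfoot gene was called there. In NAc control against PFC control, 297 genes were called with the background covariate, 53 with the astrocyte marker covariate, 187 over genes above background, 81 by DESeq2 and 3 with consecutive sample numbers as pairs, with 1 to 3 when leaving out a library. In susceptible mice the counts were 7 with the marker covariate, 2 over genes above background, 5 by DESeq2, 0 with consecutive pairs and 0 to 2 when leaving out a library (0 without PFC susceptible replicate 1, 2 without PFC resilient replicate 2). In resilient mice they were 2 with the marker covariate, 7 over genes above background, 55 by DESeq2 and 0 to 85 when leaving out a library, 85 without PFC resilient replicate 4. Over the 3 conditions, the counts were 675 with the replicate block, 405 with the background covariate, 934 with the marker covariate, 828 over genes above background, 571 by limma, 2313 by DESeq2, 11 with consecutive pairs and 596 to 3062 when leaving out a library (596 without PFC resilient replicate 1, 3062 without PFC resilient replicate 4). With the marker covariate the count was 29 with consecutive pairs and 344 to 1275 when leaving out a library (344 without PFC susceptible replicate 3). Without consecutive pairs, the main fits over the 3 conditions called 1527 genes, and 934 with the marker covariate.

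Several values that were not called changed sign, and the cause was not tested. With the marker covariate, in NAc, Mlc1 was 0.01 in susceptible mice, and Kcnj16 0.09, Mlc1 0.05 and Hepacam 0.01 in resilient mice. In PFC with that covariate, Aqp4 was -0.15 and Kcnj16 -0.06 in susceptible mice, and Aqp4 -0.21 and Dag1 -0.05 in resilient mice. Between regions with it, Mlc1 was 0.35 in susceptible and 0.53 in resilient mice, and the resilient interaction was 0.08 for Aqp4 and 0.03 for Mlc1. With the background covariate Mlc1 was 0.02 in NAc resilient mice, 0.3 in susceptible and 0.51 in resilient mice between regions, and Aqp4 was 0.31 between control groups. Over genes above background, Mlc1 was 0.01 in NAc susceptible mice, 0.12 in susceptible and 0.06 in resilient mice between regions, Kcnj16 -0.01 in PFC susceptible mice, and Aqp4 0.06 between control groups. By limma on FPKM, Kcnj16 was 0.00375 in NAc susceptible and 0.04 in NAc resilient mice, Mlc1 0.07 between susceptible groups of the regions and Aqp4 0.14 between control groups. Without the 3 shallowest libraries, Mlc1 was 0.01 in NAc susceptible mice and -0.05 over the 3 conditions, Aqp4 -0.07 in PFC susceptible against resilient mice, and Dag1 -0.02 in the covariate fit. With no count filter Kcnj16 was 0.000213 in NAc resilient mice. Aqp4 in PFC susceptible against resilient mice was -0.04 with relative log expression scaling and -0.04 by DESeq2; between control groups it was 0.02 with each of these and 0.03 with consecutive pairs. With the replicate block, Aqp4 was 0.2 between control groups and Mlc1 0.14 between susceptible groups of the regions; the block changed no call within PFC.

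When leaving out a library, Kcnj16 ran from -0.12 to 0.00139 in NAc susceptible and from -0.12 to 0.05 in NAc resilient mice, and Mlc1 from -0.21 to 0.09 in NAc susceptible mice. In PFC resilient mice the ranges were -0.24 to 1.04 for Aqp4, -0.02 to 0.44 for Kcnj16, -0.09 to 0.45 for Dag1 and -0.08 to 0.87 for Mlc1. Aqp4 ran from -0.49 to 0.97 in PFC susceptible against resilient mice and from -0.27 to 0.27 between control groups. Mlc1 ran from -0.38 to 0.07 between susceptible and -0.87 to 0.32 between resilient groups of the regions, and from -0.15 to 0.25 over the 3 conditions. Dag1 ran from -0.01 to 0.06 in the covariate fit. With consecutive pairs the calls of Slc4a4 (0.28), Gja1 (0.24), Kcnj9 (-0.81), Kcnj3 (-0.29), Kcnj6 (-0.24) and Dmd (-0.2) were lost, with background cover added that of Kcnj3, and without the 3 shallowest libraries that of Dmd. Subtracting background cover moved the mean FPKM by more than its SD in 9 of 36 gene and group combinations, all of Kcnj16 or Dag1. The lowest count in a library was 46 for Kcnj16 and 83 to 159 for the other 5 genes, which limits the precision of the shallowest libraries.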
